A study of Mus musculus with 6 samples.

Results

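The ROSA26 locus on mouse chromosome 6 is a site into which transgenes are often placed, and here it carried the Sim2 transgene. The 4 genes described are those that flank it, Thumpd3 and Srgap3 on one side and Setd5 and Lhfpl4 on the other. They were selected by gene name from the 22602 genes of the deposited expression table, by a rule of position that uses no expression value, although earlier results of these data were known. The comparison asks whether an active Sim2 transgene alters the mRNA levels of the genes beside it.

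The 6 libraries are mRNA sequencing of mouse embryonic stem (ES) cells in culture, all kept without tetracycline for 26 h. The 3 Sim2 libraries are 1 culture each of the clones A6, B8 and C4, which hold a Flag-tagged mouse Sim2 at ROSA26 behind the tetracycline-regulated promoter hCMV*-1. The other 3 libraries (EB3-0, EB3-1 and EB3-2) are cultures of EB3 (EBRTcH3), the parental line, which lacks the Sim2 transgene. In the scheme of the system, both groups also share a transactivator (tTA) cassette spliced to the first exon of ROSA26 and an IRES-Venus reporter, and in EB3 the same hCMV*-1 promoter drives a hygromycin resistance gene. The clones hold a puromycin resistance cassette in addition. Removal of tetracycline therefore switches on the locus in both groups, and the contrast is between 2 cassettes at ROSA26 and not between an active and an empty locus. The Sim2 protein, the puromycin cassette and the cloning of the lines go with the group and cannot be told apart. The table gives 1 value per gene, so alleles were not separated, and whether the cassette is on 1 allele or both is not given in the sources used here.

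Vertebrate genes stand in close order along the chromosome, and a strong promoter placed among them can raise its neighbours through shared regulatory elements or read-through, lower them by interference, or leave them as they were. The ROSA26 gene itself, Gt(ROSA)26Sor, is transcribed broadly into RNAs that code for no protein, which is why the site is favoured for transgenes. Setd5 is a SET-domain protein found with the NCoR-HDAC3 co-repressor and with the PAF1 complex of transcribing polymerase. Thumpd3 is a methyltransferase that modifies a guanosine in transfer RNAs together with its partner Trmt112. Lhfpl4 is a membrane protein that holds GABA-A receptors and neuroligin-2 together at inhibitory synapses. Srgap3 is a GTPase-activating protein for Rac that acts downstream of Slit and Robo in neuronal migration and branching.

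Positions are given on mouse build mm9. Gt(ROSA)26Sor lies on the minus strand at chr6:113020393-113027238, and the middle of this interval was taken as the insertion site. The exact insertion point was not given in the sources used here. In the annotation the first intron, which receives such cassettes, spans chr6:113021430-113027061 in 2 of the 4 transcripts, 001 and 002. Setd5 starts on the plus strand at chr6:113027633-113103418, 394 bases from the listed end of Gt(ROSA)26Sor, so the pair run away from each other. Thumpd3 lies on the plus strand at chr6:112996321-113018267 and its 3′ end faces that of Gt(ROSA)26Sor across 2125 bases. In the fuller GENCODE annotation these 2 genes overlap by 846 bases, with 145 exonic bases shared on opposite strands. The library kit does not mark strand, so reads in that stretch cannot be assigned to one or the other. Lhfpl4 (minus strand, chr6:113118081-113145378) has its nearest end, the 3′ end, 94.3 kb from the insertion site, and Srgap3 (minus strand, chr6:112667966-112897260) has its nearest end, the 5′ end, 127 kb away on the far side of Thumpd3. The exons of the 4 genes and of Gt(ROSA)26Sor had 0 alignments of at least 200 bases elsewhere in the genome at 90% identity or more.

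The 120 bases before the outermost annotated start of each gene are shown because they are the stretches that a neighbouring promoter would share or compete with. They were read from the mm9 genome at GENCODE starts, are written 5′ to 3′ on the strand of the gene, and have each CpG in capitals. The Setd5 stretch (chr6:113027239-113027358, plus strand) also overlaps the first exon of 1 annotated Gt(ROSA)26Sor transcript, 003, at chr6:113027168-113027327. The others are chr6:112996099-112996218 (plus strand) for Thumpd3, chr6:113145379-113145498 (minus strand) for Lhfpl4 and chr6:112897261-112897380 (minus strand) for Srgap3.
Setd5: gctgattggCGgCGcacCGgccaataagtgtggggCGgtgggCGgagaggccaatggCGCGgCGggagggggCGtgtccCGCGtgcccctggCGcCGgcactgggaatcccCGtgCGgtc
Thumpd3: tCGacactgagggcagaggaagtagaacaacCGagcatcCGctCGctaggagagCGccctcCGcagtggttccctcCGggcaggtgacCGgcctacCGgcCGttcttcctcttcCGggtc
Lhfpl4: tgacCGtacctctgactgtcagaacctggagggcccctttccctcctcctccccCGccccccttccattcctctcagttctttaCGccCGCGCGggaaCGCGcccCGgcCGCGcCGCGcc
Srgap3: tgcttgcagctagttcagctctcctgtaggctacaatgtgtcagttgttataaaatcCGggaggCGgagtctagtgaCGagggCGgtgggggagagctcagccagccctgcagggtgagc

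Setd5 held 15 CpG, Lhfpl4 13, Thumpd3 11 and Srgap3 4, against a median of 5 (quartiles 1 and 11) over the same stretch of 21655 genes. The CpG-dense pair Setd5 and Thumpd3 were also the highly expressed pair, whereas Lhfpl4 was as CpG-dense and low. ACGTG, the core letters bound by dimers of ARNT (the partner of SIM2), was searched on both strands together with TACGTG and CACGTG, which contain it. The 3 motifs were in 0 of the 4 stretches, and in 10.08%, 1.187% and 4.073% of the 21655. No match says only that these letters are not in these windows.

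The transgene was checked first. Sim2 stood at 196, 212 and 168 RPKM in A6, B8 and C4 and at 0.130, 0.0917 and 0.104 RPKM in EB3-0, EB3-1 and EB3-2, where RPKM is reads per kilobase of cDNA after scaling to the reads of the library. The groups were far apart, with a log2 fold change of 8.30 (SE 0.12, adjusted p = 1.55e-08, limma on log2(RPKM + 0.5)). The 6 ES cell markers (Pou5f1, Sox2, Nanog, Zfp42, Esrrb and Klf4) were all over 1 RPKM in the mean, and summed to 2906 to 3124 RPKM in the clones and 3079 to 3412 in EB3. Of the fibroblast or feeder markers only Thy1 of 6 passed 1 RPKM (sums 11.2 to 14.5 and 10.5 to 13.9 RPKM, Lum at 0). Primitive endoderm markers reached it in 0 of 5 (2.08 to 2.49 and 1.22 to 1.58 RPKM), neural markers in 2 of 4 listed (2.69 to 6.39 and 3.99 to 5.91) and mesoderm markers in 2 of 4 (3.20 to 4.10 and 2.65 to 3.27). Depth was 25095861 to 28269340 reads per library, and 1 read in a cDNA of 2 kb was worth 0.0177 to 0.0199 RPKM.

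Levels of the flanking genes fell into 2 classes. Setd5 and Thumpd3 stood near 50 RPKM, at percentiles 91.3 and 91.8 of all listed genes by mean RPKM, and were tested. Lhfpl4 and Srgap3 stood below 1 RPKM, at percentiles 45.5 and 47.2, and did not pass the filter of a mean of 1 RPKM that left 11595 genes for the test. 0 of the 2 tested members were called at an adjusted p under 0.05 by limma, and 0 of them had an unadjusted p under 0.05. Over all tested genes 0.699% were called, and 17.8% had an unadjusted p under 0.05.

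Setd5, the gene that starts closest to the insertion, was measured at 53.0, 54.7 and 51.9 RPKM in the clones A6, B8 and C4, and at 33.1 in EB3-0, 48.4 in EB3-1 and 51.6 in EB3-2. All 3 clones were above all 3 EB3 cultures, but C4 and EB3-2 were almost level, and the distance between the groups came mainly from EB3-0. The means were 53.2 ± 1.41 (SD, n = 3) and 44.3 ± 9.87 RPKM (n = 3), a log2 fold change of 0.28 (SE 0.16, adjusted p = 0.396, limma). The 95% interval ran from a fold of 0.948 to 1.57, which leaves room for an equal level and for a rise of up to that size. The 2-sided exact permutation p was 0.1, and 3 against 3 libraries allow none smaller. Among all tested genes, 12.7% had the 3 clones above the 3 EB3 cultures without overlap, so this pattern alone was common.

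**Figure D1:**
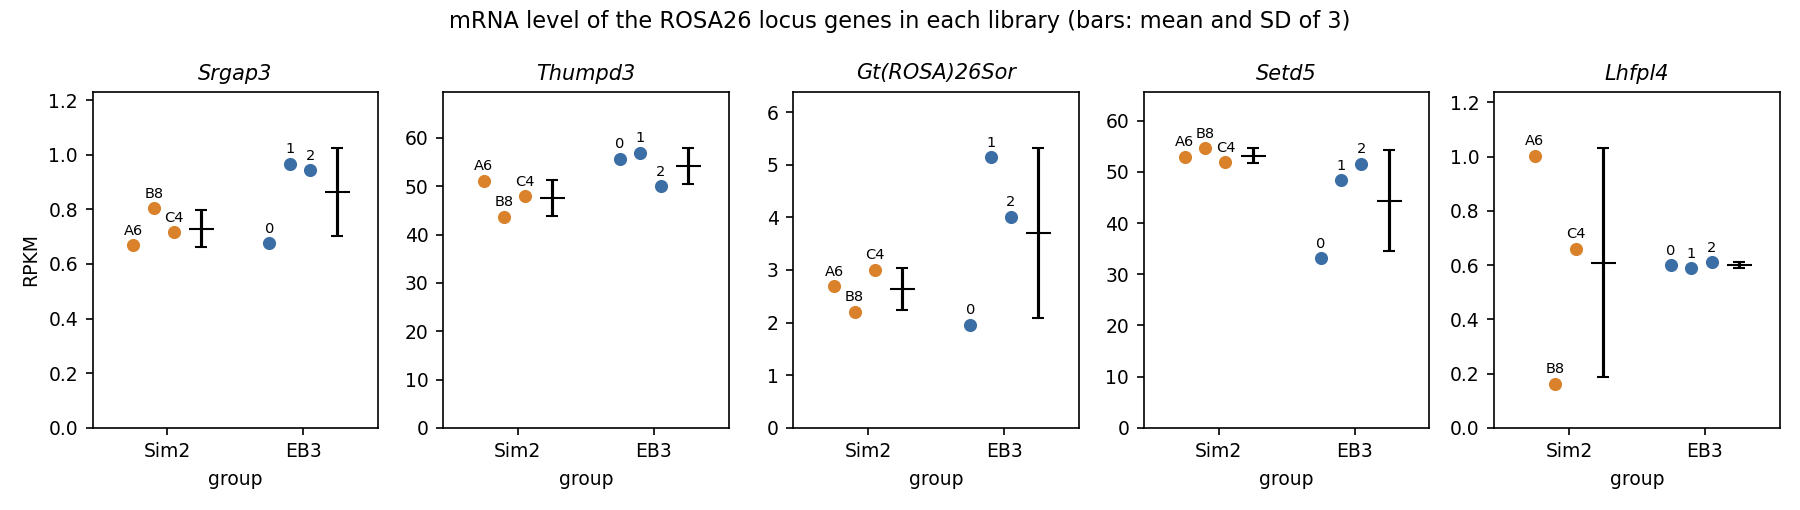
RPKM of Srgap3, Thumpd3, Gt(ROSA)26Sor, Setd5 and Lhfpl4, in their order along the chromosome, for each Sim2 clone (orange, A6, B8, C4) and each EB3 culture (blue, 0, 1, 2), with the mean and SD of each group in black and a linear axis from 0 of its own in each panel. Setd5 is higher in every clone with EB3-0 lowest at 33.1 RPKM, Thumpd3 and Srgap3 overlap, and Lhfpl4 spreads from 0.163 to 1.00 RPKM among the clones but not in EB3.

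EB3-0 stood apart from the other EB3 cultures across the whole table, and by transcript length. Pearson's r over tested genes was 0.997 between EB3-1 and EB3-2 and 0.980 between EB3-0 and EB3-1 (genes are not independent replicates). Among the clones B8 also stood apart, with r of 0.979 to A6 and 0.982 to C4, against 0.993 between A6 and C4. Relative to the mean of the other EB3 cultures, EB3-0 was higher for short cDNAs (median log2 difference 0.36 under 500 bases) and lower for long ones (−0.66 at 8000 bases or more). Setd5 has a long cDNA of 6470 bases. Its log2 difference in EB3-0 was −0.59, where the 691 tested genes of 6000 to 8000 bases had a median of −0.41 and quartiles of −0.60 and −0.24. In that same class the median log2 fold change of the clones against all EB3 cultures was 0.09. Without EB3-0 the class median was −0.05 and the log2 fold change of Setd5 was 0.09 (SE 0.07, adjusted p = 0.432, limma). With the length trend removed from every library that of Setd5 was 0.18 (adjusted p = 0.239, limma). The part of EB3-0's length trend in the Setd5 difference was not tested beyond these values.

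**Figure D2:**
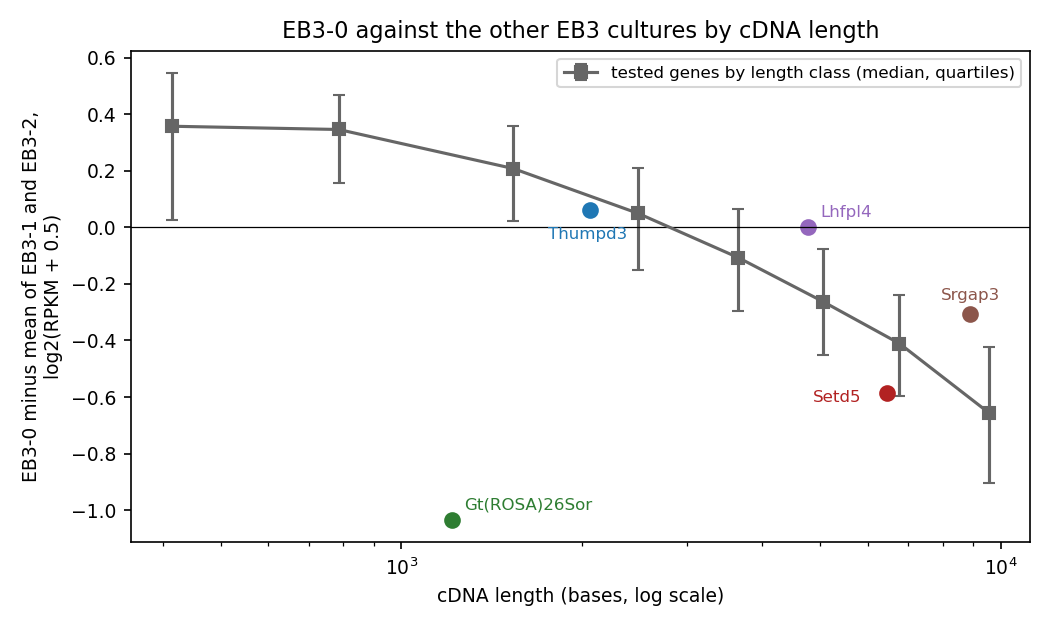
Difference of EB3-0 from the mean of EB3-1 and EB3-2 in log2(RPKM + 0.5) against cDNA length in bases on a log axis, as the median and quartiles of tested genes in 8 length classes (grey squares), with the 4 flanking genes and Gt(ROSA)26Sor as coloured points. The classes fall from 0.36 to −0.66, Setd5 (−0.59) lies near its class, and Gt(ROSA)26Sor (−1.03) lies far below the classes of its length.

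Thumpd3, whose 3′ end faces ROSA26, was measured at 51.2, 43.7 and 47.9 RPKM in the clones A6, B8 and C4, and at 55.7 in EB3-0, 56.9 in EB3-1 and 50.01 in EB3-2. B8 was lowest, and A6 was above EB3-2, so the groups overlapped. Means of 47.6 ± 3.73 and 54.2 ± 3.70 RPKM (SD, n = 3 each) gave a log2 fold change of −0.19 (SE 0.10, adjusted p = 0.362, limma) and an exact permutation p of 0.2. The interval of the fold ran from 0.753 to 1.02. Its cDNA of 2061 bases is in a class that EB3-0 hardly moved (median 0.05), and Thumpd3 in EB3-0 differed from the other EB3 cultures by 0.06.

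Lhfpl4 is the member that varied most among clones. A6 had 1.00 RPKM (120 reads), C4 0.661 (89 reads) and B8 0.163 (20 reads), whereas EB3-0, EB3-1 and EB3-2 had 0.600, 0.589 and 0.611 RPKM (78, 75 and 76 reads). A6 and C4 were above every EB3 culture and B8 below every one, so the clones lay on both sides of the parental level. The highest clone was 6.16-fold over the lowest, against 1.04-fold among EB3 cultures. The group means were nearly equal, 0.609 ± 0.423 and 0.600 ± 0.0112 RPKM (SD, n = 3 each, exact permutation p = 1). A fit with no filter on low values (17963 genes with a read, of which 0.156% were called) gave a log2 fold change of −0.07 (SE 0.28, adjusted p = 0.933, limma), with a fold between 0.610 and 1.49. Leaving out B8 turned the difference to 0.26 and leaving out A6 moved it to −0.33, so its sign rested on single clones.

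Srgap3 was near 1 RPKM or below in every library, at 0.668, 0.804 and 0.717 RPKM in A6, B8 and C4 and at 0.676, 0.968 and 0.944 in EB3-0, EB3-1 and EB3-2 (149 to 230 reads). EB3-0 fell among the clones, and the other EB3 cultures were above them. The means were 0.729 ± 0.0687 and 0.863 ± 0.162 RPKM (SD, n = 3 each, exact permutation p = 0.3). In the fit with no filter the log2 fold change was −0.14 (SE 0.14, adjusted p = 0.702, limma) and the fold lay between 0.716 and 1.15. Srgap3 has the longest cDNA of the 4, 8886 bases, and its EB3-0 value was lower than the other EB3 cultures by a log2 difference of −0.31. Tested genes of 8000 bases or more had a median of −0.66 and an upper quartile of −0.42. Those genes had a mean of at least 1 RPKM, whereas Srgap3 lay below it, where this scale understates differences. These values therefore cannot tell whether Srgap3 fell less in EB3-0 than its length class. Without EB3-0 the log2 difference of Srgap3 between clones and EB3 was −0.25, and with the length trend removed it was −0.30. The same limit of scale applies to the value with the trend removed.

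Gt(ROSA)26Sor, the host of the cassette, was low and uneven. It had 2.69, 2.21 and 3.00 RPKM in A6, B8 and C4 (82, 69 and 103 reads) and 1.96, 5.14 and 4.01 RPKM in EB3-0, EB3-1 and EB3-2 (65, 167 and 127 reads). The lowest and the 2 highest libraries were all EB3, so the groups overlapped through EB3-0. The means were 2.63 ± 0.401 and 3.70 ± 1.61 RPKM (SD, n = 3 each). The log2 fold change was −0.35 (SE 0.29, adjusted p = 0.578, limma, exact permutation p = 0.4), with an interval of 0.493 to 1.25 for the fold of RPKM + 0.5. Without EB3-0 the 3 clones lay below both remaining EB3 cultures, and the log2 fold change was −0.70 (SE 0.17, unadjusted p = 0.00597, adjusted p = 0.0675, limma), still short of a call. That fit called 5.99% of tested genes, and 26.6% had all clones below both cultures. EB3-0 differed here by −1.03, against a median of 0.21 for tested genes of 1000 to 2000 bases, so the EB3-0 value of this 1214-base RNA did not follow the length trend. Since both groups carry a cassette that uses the first exon, the level gives no measure of an unmodified ROSA26 gene.

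The 2 sides of the insertion were described out to 1 Mb. This interval holds 36 listed genes, of which 22 were tested, Gt(ROSA)26Sor and the 2 tested flanking genes included, and 2 were listed at 0 in every library (1700054K19Rik and Cav3). 0 of the 22 were called, 0 had an unadjusted p under 0.05, and the smallest adjusted p was that of Thumpd3. Over all tested genes 0.699% were called, so 0 called is the usual outcome for so few genes. An unadjusted p under 0.05 was found for 17.8% of all tested genes, a larger share than the 0 of 22 here. Log2 fold changes ran from −0.35 (Gt(ROSA)26Sor) to 0.28 (Setd5), with 6 higher, 16 lower and a median of −0.08, against −0.01 over all tested genes. Setd5 was the only one of the 22 without overlap between groups. Among all tested genes 12.7% were higher and 13.4% lower in the clones without overlap, so this does not single out Setd5. The nearest tested genes beyond the members were Rad18, a ubiquitin ligase of DNA damage tolerance, 377 kb out on the Thumpd3 side, and Mtmr14, a phosphoinositide phosphatase, 164 kb out on the Setd5 side. Rad18 stood at 9.55 ± 0.94 and 10.2 ± 1.96 RPKM (log2 fold change −0.07, SE 0.16, adjusted p = 0.857, limma). Mtmr14 stood at 19.1 ± 1.17 and 19.0 ± 1.68 RPKM (log2 fold change 0.01, SE 0.11, adjusted p = 0.986, limma). Within 0.5 Mb the median of 16 tested genes was −0.08, and within 2 Mb that of 26 was −0.05, with 0 called in either.

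**Figure D3:**
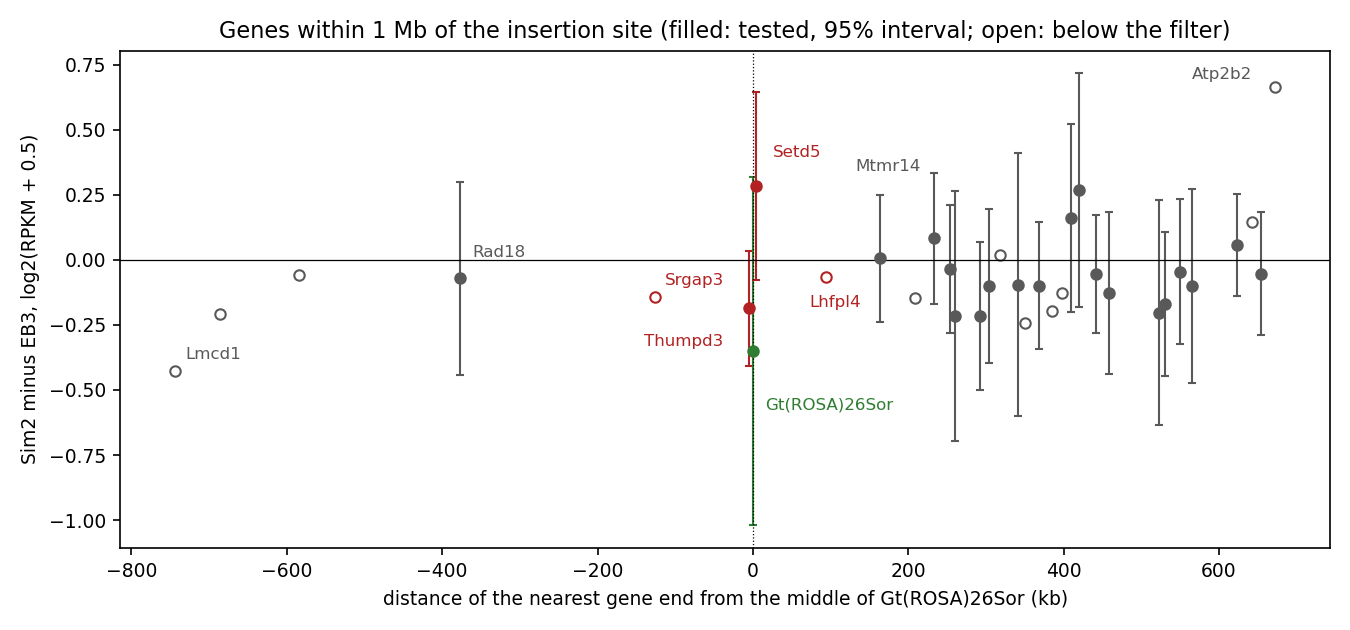
Log2 difference of Sim2 clones from EB3 cultures in log2(RPKM + 0.5) against the distance in kb of the nearest gene end from the middle of Gt(ROSA)26Sor, for the 34 genes within 1 Mb with a read. Filled points are tested genes with their 95% limma interval, open points are genes below the filter, red marks the 4 flanking genes and green Gt(ROSA)26Sor, and the interval of every tested gene includes 0.

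The neighbours' median moved as much between libraries of a group as between groups. Against the EB3 mean, the median log2 difference of the 22 genes was 0.00 for A6, −0.16 for B8 and −0.07 for C4. Against the other 2 cultures, it was 0.17 in EB3-0, −0.11 in EB3-1 and −0.02 in EB3-2. On the Thumpd3 side both tested genes were lower (Rad18 and Thumpd3), and on the Setd5 side 13 of 19 were lower with a median of −0.05.

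Partners of the members, and relatives with similar domains, were described by their mRNA levels. For Setd5, 25 of 27 listed partners and relatives were in the table and tested, with 15 higher, 10 lower and 0 called (median log2 fold change 0.04). An unadjusted p under 0.05 was found for 4 of the 25, a share close to the 17.8% of all tested genes. Its 3 smallest adjusted p-values (limma) were those of Setd6, a lysine methyltransferase (−0.44, SE 0.14, adjusted p = 0.165), Cdc73, a PAF1 complex subunit (−0.34, adjusted p = 0.200), and Setdb1, a histone methyltransferase (0.26, adjusted p = 0.245). For Thumpd3, all 12 relatives were tested, with 3 higher, 9 lower and 0 called (median −0.14). Of these 12, 5 had an unadjusted p under 0.05, a larger share than the 17.8% of all tested genes. The cause of this larger share was not tested. Mettl5, a ribosomal RNA methyltransferase that also uses Trmt112, stood at 25.1 and 33.5 RPKM (log2 fold change −0.41, SE 0.09, adjusted p = 0.0847, limma). Thumpd1, an adaptor for transfer RNA acetylation, gave −0.33 (adjusted p = 0.120, limma) and Thumpd2 gave −0.49 (adjusted p = 0.168, limma).

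The Lhfpl4 list was mostly below the filter, and the Srgap3 list mostly above it. Of 18 Lhfpl4 partners, which include the GABA-A receptor subunits, 2 were tested and 0 called. These were the inhibitory synapse genes Nlgn2 (0.31, adjusted p = 0.445, limma) and Gphn, which codes for gephyrin (0.16, adjusted p = 0.723, limma). Of 17 Srgap3 partners 11 were tested, with 5 higher, 6 lower, 0 called, 1 with an unadjusted p under 0.05 and a median of 0.00. The smallest adjusted p-values (limma) there were those of the GTPase Cdc42 (−0.20, adjusted p = 0.245) and the actin regulators Wasf3 (0.34, adjusted p = 0.335) and Vasp (−0.17, adjusted p = 0.352).

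The genes most like each tested member over the 6 libraries were ranked by Pearson's r of log2(RPKM + 0.5) among all tested genes. Setd5 was most like 4930512B01Rik (0.997), Pdpr (0.996) and Gm5113 (0.995), and Thumpd3 most like Leprot (0.998), Fam149b (0.992) and Cdkn3 (0.990). With 6 points shared by all genes and so many genes ranked, such values are a description and no gene of the locus was among them.

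The directions of 4 of the 5 locus genes did not turn under any of 15 alternative settings. Setd5 was higher in 15 of 15, with log2 fold changes of 0.09 to 0.40. Thumpd3 was lower in 15 of 15 (−0.24 to −0.13), as were Srgap3 (−0.30 to −0.09) and Gt(ROSA)26Sor (−0.70 to −0.10). Lhfpl4 was lower in 14 and higher in 1, the setting without B8. Its sign also depended on the scale, since its mean RPKM was slightly higher in the clones (0.609 against 0.600). Of these settings, 2 (no filter on low values and no intensity trend) leave the difference as it is by construction and bear only on its test. Setd5, Thumpd3 and Gt(ROSA)26Sor were called in 0 of the 15. Lhfpl4 and Srgap3 entered the fit only with no filter, and were not called there.

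**Figure D4:**
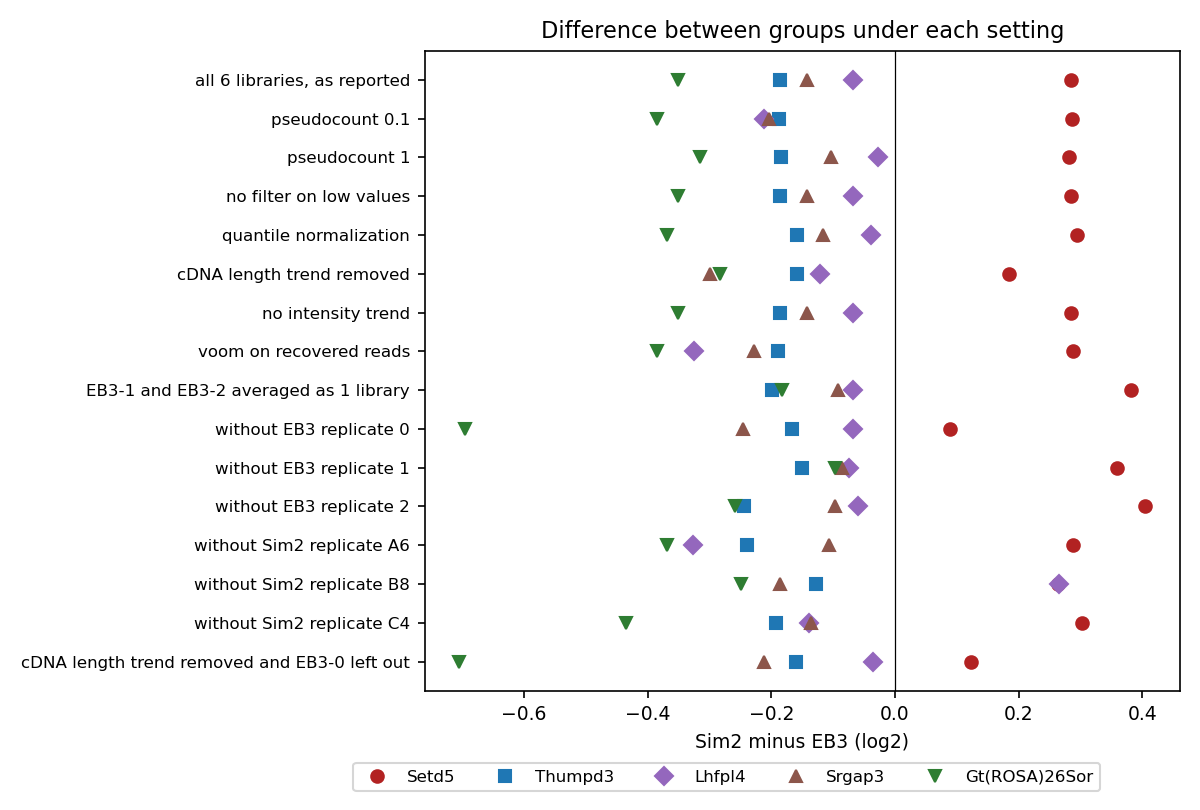
Log2 difference of Sim2 clones from EB3 cultures for Setd5, Thumpd3, Lhfpl4, Srgap3 and Gt(ROSA)26Sor (symbols) as reported and under each of 15 alternative settings (rows). Setd5 stays right of 0 but is lowest at 0.09 without EB3-0, and Gt(ROSA)26Sor reaches −0.70 in the settings that leave out EB3-0.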

How the data were processed

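Per the labels and the study's methods, the authors mapped paired reads to mm9 with BWA at default parameters, counted exon coverage of RefSeq genes with a custom pipeline, and deposited RPKM for each library. The authors' differential test used edgeR. Versions, and whether counting used strand, are not given in the sources used here. Of the table's columns with values per sample, 0 went unused. Of 21655 symbols matched to GENCODE on mm9, 98.91% overlapped their listed position.

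RPKM times cDNA length was a whole multiple of 1 step per library in 100% of values (tolerance 0.01 reads), which gave the reads. In A6 742 genes had 2 reads and 199 had 1, as when mates are counted apart.

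RPKM is not a count, so limma 3.58.1 (R 4.3.3, eBayes with an intensity trend) was fitted to log2(RPKM + 0.5) of genes with a mean of at least 1 RPKM over the 6 libraries, with Benjamini-Hochberg adjustment over the 11595 genes tested and no covariate. Fold changes on this scale understate those of low genes. An adjusted p under 0.05 was called. Exact permutation tests used mean RPKM and were 2-sided. The fit was tested on simulated data with changes larger than those of the locus genes and no length trend. That test does not bear on differences as small as theirs. Tables were handled in Python 3.11.15. The EB3 libraries are cultures of 1 line, and p-values measure only the spread between these libraries.

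Genes named were Sim2, Gt(ROSA)26Sor, the 4 members, the nearest tested genes beyond them, called genes and the largest rise and fall within 1 Mb, the 3 with the smallest adjusted p in each list, and the 3 most correlated with each tested member. The members and lists were chosen with earlier results of these data known.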

Additional observations from a re-analysis of the deposited data

How the results depend on the processing

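The counts of members and of neighbours within 1 Mb called were 0 in every alternative run, but Lhfpl4, Srgap3 and the other neighbours below the filter were fitted only with no filter on low values. The count over all tested genes, 81, did not hold: 28 were called with no filter on low values, 250 with the cDNA length trend removed, 30 with no intensity trend, 6 with EB3-1 and EB3-2 averaged as 1 library, and 744 with the length trend removed and EB3-0 left out, a setting chosen after seeing the data. Leaving out 1 library gave 6 (EB3-1 or EB3-2) to 694 (EB3-0), with 20 without A6, 17 without B8 and 7 without C4. Srgap3 moved to −0.30 with the length trend removed. The median of the neighbours, −0.08 with all 6 libraries, was −0.01 without EB3-0. It moved to 0.000756 with the length trend removed and EB3-0 left out. In the other settings it ran from −0.11 (without A6) to −0.03 (length trend removed). The causes were not tested. No paired analysis was possible because the clones carry names and the EB3 cultures numbers. Lhfpl4, Srgap3 and Gt(ROSA)26Sor rest on 20 to 230 reads a library, and on fewer fragments if mates were counted apart. The part of counting error in the spread of these genes was not tested, and the 95% interval of Gt(ROSA)26Sor still allows a fold of 0.493 in RPKM + 0.5.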

Other observations

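Genes within 1 Mb with a mean under 1 RPKM were outside the main test, and the 3 named here were chosen after their values were seen. In the fit with no filter on low values, 0 of the 34 genes with a read within 1 Mb were called (smallest adjusted p = 0.173, limma), and 3 had an unadjusted p under 0.05, where 15.1% of all 17963 genes did. Atp2b2, a plasma membrane calcium pump 672 kb from the insertion site, had 0.466, 1.01 and 0.229 RPKM in A6, B8 and C4 and 0.139, 0.158 and 0.135 in EB3-0, EB3-1 and EB3-2. All clones were above all EB3 cultures, as in 10.2% of genes in that fit, but the clones differed widely among themselves (0.567 ± 0.398 against 0.144 ± 0.0123 RPKM, SD, n = 3 each). The log2 difference of RPKM + 0.5 was 0.66 (95% interval 0.11 to 1.22, adjusted p = 0.253, limma). Lmcd1, a LIM-domain protein 743 kb away on the other side, was lower without overlap (0.134 ± 0.0637 against 0.355 ± 0.106 RPKM, log2 difference −0.43, adjusted p = 0.173, limma), as were 11.5% of genes. These Lmcd1 values rest on few reads, 7, 8 and 3 in A6, B8 and C4 and 11, 19 and 19 in EB3-0, EB3-1 and EB3-2. Cidec, a lipid droplet protein, had 0 reads in the 3 clones and in EB3-1, 6 in EB3-0 and 7 in EB3-2.

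B8 was the clone that stood apart from the others over the whole table (r of 0.979 and 0.982, against 0.993). Among the clones it was lowest for Thumpd3, Lhfpl4 and Gt(ROSA)26Sor and highest for Setd5, Srgap3 and Atp2b2. How often B8 was the lowest or highest clone over all genes was not counted. Prrt3, picked after its values were seen, was also higher in B8 than in the other clones (4.08 RPKM against 3.08 and 2.47).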
